A study of Callithrix jacchus with 71 samples.

Results

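FGF receptors and the feedback genes of FGF signaling were followed across single marmoset cells. The set holds 10 genes, the receptors FGFR1, FGFR2, FGFR3 and FGFR4 and the feedback genes SPRY1, SPRY2, SPRY4, DUSP6, ETV4 and ETV5. They were chosen by name, and all 10 had a row among the 23561 named genes of the table of normalized counts. The study reprogrammed fibroblasts from the dorsal skin of embryonic marmosets (Callithrix jacchus) into induced neural stem cell-like cells (iNSLCs) and from there into iPSCs. Sequenced here were 1 E01F fibroblast, 65 E01F A2 iNSLCs, 1 E01F A-2-2 iPSC and 4 cells of the embryonic stem cell line No.40 ESC. The iNSLCs were at an early passage and had received the EP-A set of episomal vectors (OCT4, SOX2, KLF4, L-MYC, LIN28, the dominant-negative p53 mutant mp53DD and EGFP), which iNSLC clones can retain. They were grown in NSM, a medium with chemical inhibitors whose composition was not given in the sources used here, and the ESCs and the iPSC in ESM, a medium based on basic FGF and knockout serum replacement. RNA of each sorted cell was read by RamDA-seq, a full-length total RNA method.

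FGF ligands bind receptor tyrosine kinases together with heparan sulfate and switch on the RAS and ERK cascade. ERK in turn raises the transcription of its own brakes, among them the Sprouty proteins and the phosphatase DUSP6, and of the ETS factors ETV4 and ETV5, so that transcripts of these genes are widely used as a readout of FGF and ERK activity. FGF and ERK signaling maintains primed human and primate pluripotent cells in culture and is also a mitogen of neural stem cells.

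Depth was 82268 to 695241 reads in iNSLCs, 134328 to 1003718 in ESCs, 302617 in the iPSC and 1294430 in the fibroblast. ESC cell 11 was the shallowest ESC and had 7126 detected genes against 15122 or more in the other ESCs, so values without it are given where it matters. The summed 8 pluripotency markers reached 268 to 1158 normalized counts in ESCs and 745 in the iPSC, against a median of 0 (range 0 to 117) in iNSLCs and 0 in the fibroblast. The summed 8 neural stem cell markers were 1255 to 8529 in iNSLCs and 122 to 233 in the ESCs and iPSC. In the fibroblast they summed to 7266 with 5 of the 8 at 0. The fibroblast held 32692 over 8 fibroblast markers, against 71.1 to 1312 in iNSLCs. ESCs and the iPSC are called PSC cells below. Each group stems from 1 labelled source, so cells are not replicates of a condition and no test between groups was made. Donor line, medium and cell state cannot be told apart between ESCs and iNSLCs.

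All 4 receptors were transcribed in iNSLCs and in PSC cells, and none differed 2-fold between them on average, a call that changes with the scaling and the cells used, as given below. FGFR1, the receptor widely expressed in neural progenitors and mesenchymal cells, had a read in every cell. Its normalized counts were 351, 304, 274 and 186 in ESC cells 10, 11, 12 and 14, 498 in the iPSC and 299 in the fibroblast, against 21.9, 199 and 616 as the lowest, median and highest of the iNSLCs. Every one of these cells lay inside the iNSLC range, with the iPSC in its upper part.

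FGFR2, a receptor of epithelial and neural tissue, was the only receptor with a lower mean in PSC cells. It had 47.4, 12.8, 21.1 and 56.6 normalized counts in ESC cells 10, 11, 12 and 14 and 39.5 in the iPSC. The iNSLCs ran from 9.65 to 157 with a median of 62.8, and all 65 had a read. All PSC cells were below that median and none was below the range. The fibroblast had no FGFR2 read among its 1294430 reads, and the floor of 3 reads puts its level at least 55.2-fold below the iNSLC mean.

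FGFR3, known as a marker of neural progenitors and astrocytes in the brain, was found in 64 of 65 iNSLCs (98.5%), with normalized counts of 0, 81.0 and 487 as the lowest, median and highest. ESC cells 10, 11, 12 and 14 had 174, 339.6, 119 and 123, the iPSC had 162 and the fibroblast 97.9. The PSC cells all stood above the iNSLC median and within the range.

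FGFR4, the receptor known for FGF19 signaling in liver and present in early embryonic cells, was found in 62 of 65 iNSLCs (95.4%), from 0 to 138 normalized counts with a median of 50.8. ESC cells 10, 12 and 14 had 124, 113 and 156, and ESC cell 11 had none. The iPSC had 83.4 and the fibroblast 23.5. ESC cell 14 was the single PSC cell above the iNSLC range for any receptor.

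As log2 ratios of the mean of the 5 PSC cells to the mean of the 65 iNSLCs (pseudocount of 1), FGFR1 was at 0.58, FGFR2 at -0.90, FGFR3 at 0.80 and FGFR4 at 0.72. The median of the 4 was 0.65, beside a median of 0.37 over all 16269 genes tested. Of all genes tested, 54.4% were less than 2-fold apart in either direction, so the 4 of 4 receptors in that class describe these cells and single out nothing about receptors. Relative to the median of all genes, FGFR2 was at -1.27 and the other 3 receptors were between 0.21 and 0.43. The highest of these, FGFR3, rested on ESC cell 11. Without that cell its log2 ratio was 0.46, beside a median of 0.47 over all genes tested. FGFR2 passed 2-fold with every cell scaled to the median total (-1.19), thinned to 130000 reads (-1.16), without ESC cell 10 (-1.02) or 14 (-1.12), and against the iNSLCs numbered from 57 alone (-1.07). Against the 27 iNSLCs numbered up to 56, FGFR1, FGFR3 and FGFR4 reached 2-fold, FGFR4 at 1.07 and FGFR1 just at the limit. FGFR4 also did so without ESC cell 11 (1.04) and by medians over cells (1.14). No log2 ratio of a receptor changed sign under these settings. No comparison of level between receptors was made, because no transcript lengths were used here.

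**Figure D1:**
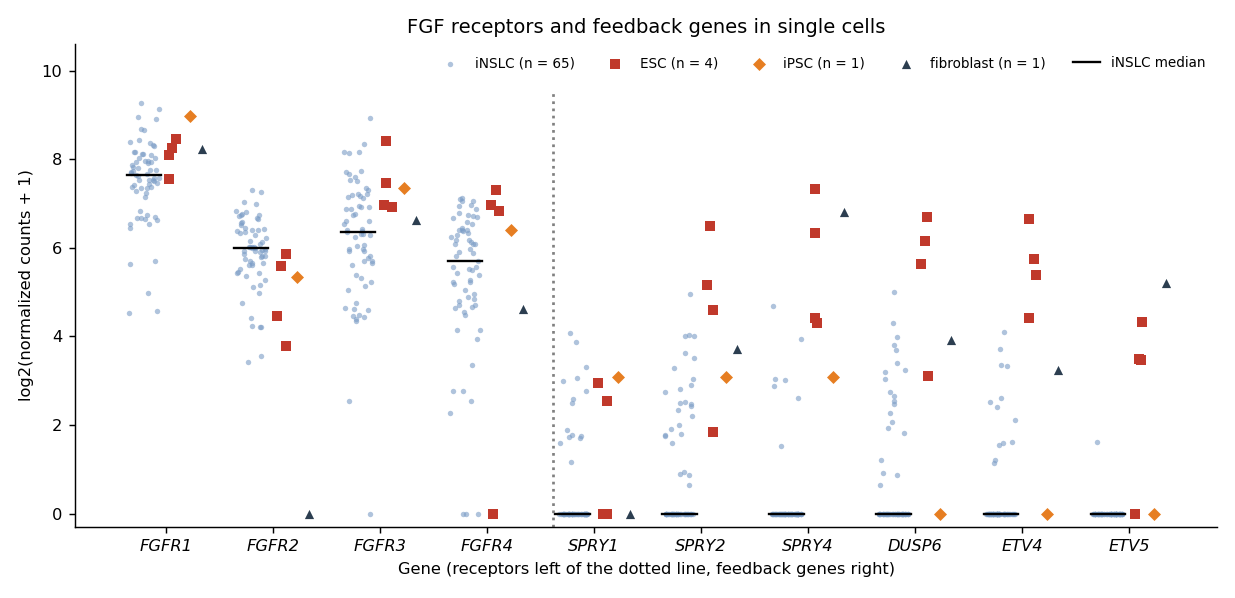
Each point is 1 cell, with log2(normalized counts + 1) on the vertical axis and the 10 genes on the horizontal axis; black bars mark the iNSLC median. The 4 receptors overlap between iNSLCs and PSC cells, whereas the iNSLC median is 0 for all 6 feedback genes and ESC cells 12 and 14 lie above the highest iNSLC for 5 of the 6.

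The feedback genes followed another pattern. Each of the 6 had a mean at least 2-fold higher in PSC cells than in iNSLCs, where 30.4% of all genes tested were that much higher. Their median log2 ratio was 3.45, against 0.65 for the receptors and 0.37 for all genes tested. With a pseudocount of 10 the median was 1.94 and 4 of 6 genes passed 2-fold. Without the shallow ESC cell 11 the median was 3.73. The iPSC departed from the ESCs, as the values below show.

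Among the Sprouty genes, which encode intracellular inhibitors of receptor tyrosine kinase signaling, SPRY4 differed most. It had 18.6, 20.4, 159 and 79.1 normalized counts in ESC cells 10, 11, 12 and 14, 7.48 in the iPSC and 110.5 in the fibroblast. Only 7 of 65 iNSLCs had a read (10.8%, exact Clopper-Pearson 95% interval 4.44% to 20.9%), and the highest, cell 42, reached 24.5. ESC cells 12 and 14 and the fibroblast were above every iNSLC, and ESC cells 10 and 11 were below that 1 iNSLC alone. The mean was 57.0 in PSC cells and 1.02 in iNSLCs (55.8-fold, 95% counting interval 45.3 to 69.5 from the 88 iNSLC reads). Cell 42 held 44 of those reads, and the interval leaves out the PSC reads and the spread between cells.

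SPRY2 was found in more iNSLCs, 27 of 65 (41.5%, interval 29.4% to 54.4%), with a highest value of 30.0 in cell 41. The ESCs had 23.1, 2.55, 89.6 and 35.0, the iPSC 7.48 and the fibroblast 12.1. ESC cells 12 and 14 were above the iNSLC range, and the value of ESC cell 11 was 1 read. The ratio of means was 11.7-fold (counting interval 10.2 to 13.4 from 215 iNSLC reads, 68 of them in cell 41).

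SPRY1 was low in every state. It had no read in ESC cells 10 and 11, 4.86 and 6.66 normalized counts in ESC cells 12 and 14 and 7.48 in the iPSC. It was found in 15 of 65 iNSLCs (23.1%, interval 13.5% to 35.2%), up to 15.8 in cell 38, and had no read in the fibroblast. No PSC cell exceeded the highest iNSLC. The log2 ratio of means, 1.07, was the lowest of the 6 and close to the 2-fold limit. It fell under 2-fold without the iPSC (0.77), without ESC cell 12 (0.99) or without ESC cell 14 (0.84). It also did so with every cell scaled to the median total (0.82), against iNSLCs numbered up to 56 (0.42) and with a pseudocount of 10 (0.29).

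DUSP6, a cytoplasmic phosphatase that removes the activating phosphates of ERK, had 69.6, 7.66, 103 and 48.3 normalized counts in ESC cells 10, 11, 12 and 14. The iPSC had no read and the fibroblast had 14.2. In iNSLCs it was found in 21 of 65 cells (32.3%, interval 21.2% to 45.1%), and the highest, cell 79, had 31.0. ESC cells 10, 12 and 14 were above the iNSLC range, and the others were inside it. The ratio of means was 18.7-fold (counting interval 16.0 to 22.0 from 155 iNSLC reads).

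ETV4 and ETV5, ETS transcription factors of the same subfamily induced downstream of FGF receptors, stood apart from the iNSLCs in different ways. ETV4 had 20.2, 40.9, 98.8 and 52.5 normalized counts in the 4 ESCs, and all 4 lay above the highest iNSLC, cell 58, at 16.2. It was the only 1 of the 6 feedback genes, and of the 10 genes, whose ESC and iNSLC values did not overlap, where 2.02% of all genes tested had the lowest ESC above the highest iNSLC. The iPSC had no ETV4 read, so no gene of the set kept the PSC cells as a whole apart from iNSLCs (1.16% of all genes tested did). ETV4 was found in 13 of 65 iNSLCs (interval 11.1% to 31.8%) and the fibroblast had 8.50.

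ETV5 was close to absent in iNSLCs, with 1 read in 1 of 65 cells (1.54%, interval 0.0389% to 8.28%). The ESCs had 19.0, 0, 10.3 and 10.0 normalized counts, the iPSC had none and the fibroblast had 36.0. ESC cells 10, 12 and 14 and the fibroblast were above the single iNSLC with a read, at 2.04. The ratio of PSC cells to iNSLCs was 250.3-fold, and with 1 read behind the lower mean its counting interval ran from 44.9 to 9886.

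At equal depth the feedback reads of ESCs and iNSLCs were still apart. With every cell thinned to 130000 reads, which left out 7 shallower iNSLCs, the summed reads of the 6 feedback genes were 27 to 159 in the 4 ESCs, 11 in the iPSC and 41 in the fibroblast, against a median of 2 and a range of 0 to 13 in 58 iNSLCs. Without thinning, the sums were 151, 71.5, 465 and 232 normalized counts in ESC cells 10, 11, 12 and 14, 22.4 in the iPSC and 181 in the fibroblast. The iNSLCs ran from 0 to 33.7 with a median of 5.97. No iNSLC reached the lowest ESC, and 8 iNSLCs were at or above the iPSC. Reads of feedback genes were thus scarce in iNSLCs, and reads of receptors were not.

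That contrast was put as feedback reads per 100 receptor reads within each cell, a measure that no scaling of cells can change and that was chosen after the values were seen. It was 21.6, 10.9, 88.1 and 44.4 in ESC cells 10, 11, 12 and 14, 2.86 in the iPSC and 43.2 in the fibroblast. The iNSLCs had a median of 1.27 and a range of 0 to 14.2. ESC cells 10, 12 and 14 and the fibroblast were above all iNSLCs. The 2 iNSLCs at or above ESC cell 11 were cells 34 and 38, and 18 of 65 iNSLCs were at or above the iPSC.

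**Figure D2:**
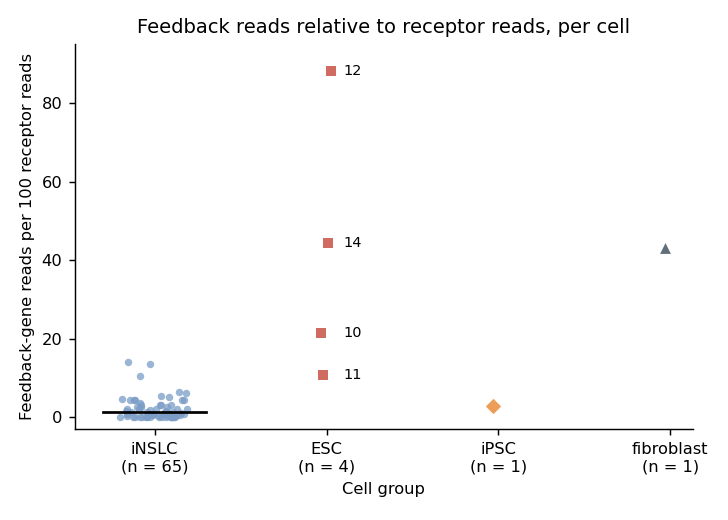
Each point is 1 cell, placed by its reads of the 6 feedback genes per 100 reads of the 4 receptors (linear axis), with ESC cell numbers beside the points and a bar at the iNSLC median of 1.27. The ESCs lie between 10.9 and 88.1 and the fibroblast at 43.2, while the iPSC, at 2.86, lies among the iNSLCs.

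The iPSC was near the ESCs in the receptors and low in the feedback genes. All 6 of its feedback values lay within the iNSLC range. ESC cells 10, 11, 12 and 14 had 3, 1, 5 and 5 of 6 above that range. Per cell, the median log2 ratio of the 6 genes to the iNSLC mean was 3.30, 0.64, 4.76 and 3.63 in these ESCs and 0.58 in the iPSC. The lowest ESC was thus close to the iPSC on this measure. ESC cell 11, with 134328 reads, had no read of 2 of the 6 genes and the iPSC of 3, so their medians rest in part on the pseudocount.

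Against the iPSC, the ESC mean of DUSP6 was at least 17.8-fold higher, that of ETV4 at least 16.6-fold and that of ETV5 at least 3.06-fold, each set against a floor of 3 reads in the iPSC. SPRY4 was 9.27-fold (counting interval 4.50 to 23.1) and SPRY2 5.02-fold (2.44 to 12.5) higher, and SPRY1 was lower (log2 ratio -1.13). Of all genes tested, 31.4% were at least 2-fold higher and 19.9% at least 2-fold lower in ESCs than in the iPSC, so 5 of 6 higher stands beside a large background from a single cell. The receptors differed between ESCs and the iPSC by 1.79-fold at most, for FGFR1, which was 2.32-fold higher in the iPSC than in iNSLCs. At 130000 reads a cell, DUSP6 still had 3 to 33 reads and ETV4 7 to 37 in the ESCs, and none in the iPSC. The iPSC shares the E01F origin with the iNSLCs and the medium with the ESCs, and 1 cell gives no spread of its own.

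With the iPSC left out, the median log2 ratio of the 6 feedback genes to iNSLCs was 3.73, and 5 of 6 were at least 2-fold higher in ESCs, where 31.8% of all genes tested were. With the iPSC alone, 3 of the 5 feedback genes tested were at least 2-fold higher than in iNSLCs, where 27.0% of all genes were: SPRY1, SPRY2 and SPRY4, each on 7 reads. DUSP6 and ETV4 had no read there, and the iNSLC means (2.44 and 1.12) are also under the 3.21 normalized counts that 3 reads are worth in the iPSC, so no fold is given.

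**Figure D3:**
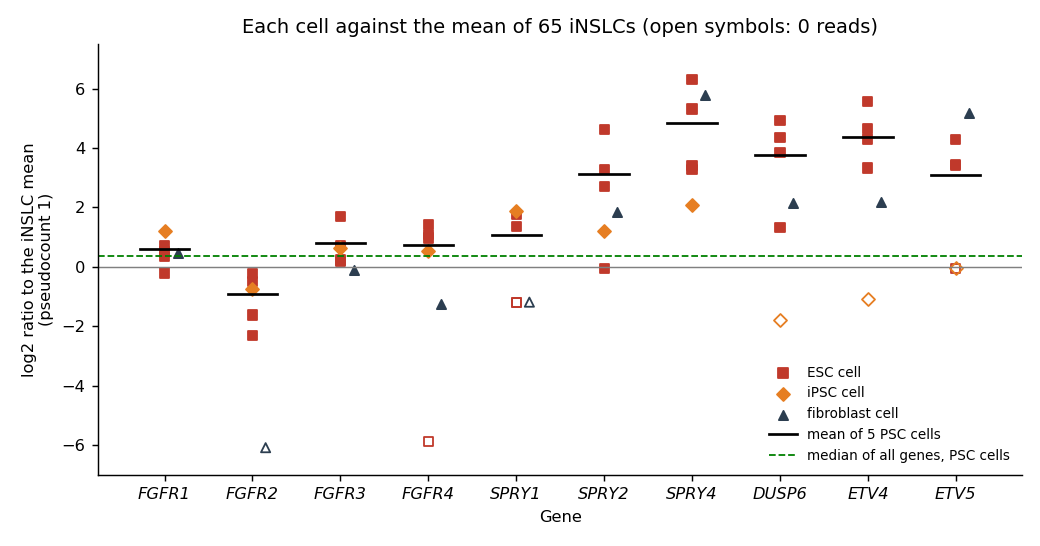
For each gene, points give the log2 ratio of single ESC, iPSC and fibroblast cells to the mean of 65 iNSLCs (pseudocount of 1), bars the ratio of the mean of 5 PSC cells, and the dashed line the median of all genes tested (0.37). The 4 ESCs are above 0 for SPRY4, DUSP6 and ETV4. Open symbols mark cells with 0 reads, whose height is set by the pseudocount and gives no direction for DUSP6 and ETV4 in the iPSC.

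The fibroblast combined a narrower receptor set with high SPRY4 and ETV5. FGFR1 was 1.39-fold higher than the iNSLC mean but lower with every cell scaled to the median total (log2 ratio -0.28). FGFR3 was 1.07-fold lower, with log2 ratios of -0.86 under that scaling and -0.75 after thinning to 130000 reads. FGFR4 was 2.44-fold lower and FGFR2 had no read. So 2 of 4 receptors were at least 2-fold lower, where 26.1% of all genes tested were. SPRY4 was 108-fold higher than the iNSLC mean, ETV5 1147-fold on 1 iNSLC read (counting interval 206 to 45320.2), ETV4 7.61-fold, DUSP6 5.81-fold and SPRY2 4.50-fold. SPRY4 and ETV5 were above every iNSLC, and the other 4 feedback genes were within the iNSLC range. SPRY1 had no read, which puts it at least 1.05-fold lower. The median log2 ratio of the 6 was 2.15, also with SPRY1 at that bound, beside 0.08 over all genes tested. For at least 2-fold higher the count was 5 of 6, where 26.5% of all genes tested were.

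Compared with the ESC mean, the fibroblast had 6.25-fold less ETV4, 4.03-fold less DUSP6 and 3.09-fold less SPRY2, but 3.67-fold more ETV5 and 1.59-fold more SPRY4. The ratio of ETV4 to ETV5 reads thus lay on opposite sides, at 21 to 89 in the fibroblast and at 50 to 47, 16 to 0, 183 to 19 and 63 to 12 in ESC cells 10, 11, 12 and 14. The counts of ESC cell 10 differed by less than their counting error. Without transcript lengths these reads do not say which transcript was more abundant within a cell. The fibroblast was the deepest cell, and when it was thinned to 130000 reads the median log2 ratio of the 6 genes to iNSLCs was 0.73. The feedback genes at least 2-fold higher were then 3 (SPRY4, ETV5 and ETV4), and SPRY2 and DUSP6, with 1 read each, were at log2 ratios of 0.09 and 0.05. Cells were thinned once, so these low counts come from a single draw. With every cell scaled to the median total instead, 5 of 6 feedback genes stayed at least 2-fold higher. SPRY2 was then at a log2 ratio of 1.11 and DUSP6 at 1.46.

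Within the iNSLCs, receptors were broad and feedback genes scattered. All 4 receptors had a read in 61 of 65 cells and 3 of them in the other 4 cells. No feedback gene was read in 15 cells, exactly 1 in 26 cells, 2 in 15 cells, 3 in 8 cells and 4 in 1 cell. At least 1 feedback gene was read in 50 of 65 iNSLCs (76.9%, interval 64.8% to 86.5%). The share was 70.7% of 58 cells at 130000 reads. The ESCs had 5, 4, 6 and 6 feedback genes read, the iPSC 3 and the fibroblast 5. So 5 of 6 feedback genes were read in at least 3 ESCs and in under 50% of iNSLCs, where 17.4% of all genes tested were. SPRY1 was the exception.

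The iNSLCs with the highest summed feedback values differed in which genes held the reads. Cells 34, 42, 79 and 41 led with 33.7, 33.5, 33.4 and 30.0 normalized counts. Cell 34 had DUSP6 and SPRY2 (36 and 29 reads), cell 41 had SPRY2 alone (68 reads), cell 79 mostly DUSP6 (26 of 28 reads), and cell 42 mostly SPRY4 (44 of 60 reads). Of all 65 iNSLCs, 1 had as many feedback genes read as the lowest ESC, which had 4.

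Spearman correlations over the 65 iNSLCs were weak, at 0.11 to 0.28 for the 6 pairs of receptors, -0.15 to 0.31 for the 15 pairs of feedback genes and -0.26 to 0.24 for the 24 pairs of a receptor with a feedback gene. The points share their scaling and differ in depth, and the values are given as a description. SPRY2 with DUSP6 had the highest value of the feedback pairs, at 0.31 over all cells, 0.30 and 0.29 within the ranges of cell numbers given below and 0.22 at 130000 reads. A search over the 6093 genes whose mean reached 10 and that were read in at least 50% of iNSLCs put closest to FGFR1 the genes SLC29A4 (Spearman's rho 0.55), PLPPR3 (0.55) and SLC25A1 (0.54). The closest to FGFR2 were NCOA4 (0.53), SIK2 (0.50) and OTUD7B (0.49), and those to FGFR3 were ARC (0.51), NPM3 (0.50) and FOXB1 (0.47). The closest to FGFR4 were MDH2 (0.53), SSR2 (0.53) and SCARB1 (0.51). These are the highest of 6093 values for each receptor and were not tested. In cells numbered up to 56, SLC29A4 was at 0.28 and PLPPR3 at 0.37 with FGFR1, and SSR2 at 0.32 with FGFR4. Only NCOA4, an adaptor for ferritin turnover, had a higher value with its receptor in each range of cell numbers (0.74 and 0.64) than over all cells.

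The iNSLCs were split by cell number into a range up to 56 (27 cells) and one from 57 (38 cells). The boundary was taken from earlier results of these data, so differences between the ranges are descriptions only. The ranges differ in depth, with median reads of 357910 and 208746. The labels do not say what the numbers stand for beyond naming cells. All 4 receptors had higher means in the range from 57, by 1.58-fold for FGFR1, 1.38-fold for FGFR2, 1.71-fold for FGFR3 and 1.47-fold for FGFR4. None was 2-fold higher, as 7.33% of all genes tested were. After thinning to 130000 reads the means kept that order, with 105 against 71.3 reads for FGFR1, 30.4 against 25.2 for FGFR2, 51.4 against 37.2 for FGFR3 and 25.9 against 22.3 for FGFR4. Neural stem cell markers moved with them, with higher means from 57 for 7 of 8 markers (CDH2 was lower), among them MSI1 (97.4 against 44.4 normalized counts), NES (323 against 173) and SOX2 (121 against 65.7). Their sum ran from 1255 to 8529 (median 3565) from 57 and from 1321 to 6447 (median 2503) up to 56, and no marker was at 0 in all cells of a range. Their part in the result was not tested.

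SPRY1 and ETV4 divided between these ranges in opposite directions. SPRY1 was read in 11 of 27 cells numbered up to 56 (40.7%, interval 22.4% to 61.2%) and in 4 of 38 from 57 (10.5%, 2.94% to 24.8%). ETV4 was read in 2 of 27 (7.41%, 0.910% to 24.3%) and in 11 of 38 (28.9%, 15.4% to 45.9%). At 130000 reads a cell the shares were 33.3% and 8.82% for SPRY1, and 4.17% and 29.4% for ETV4. The range with more ETV4 was the shallower one, and the intervals of the 2 ranges overlap for each gene. Both passed 2-fold on the pseudocount scale. SPRY1 was at a log2 ratio of -1.40, where 7.10% of all genes tested were at least 2-fold lower. ETV4 was at 1.08, close to the limit, where 7.33% were at least 2-fold higher. The ETV4 ratio rested on 46 reads from 57 and 8 reads in 2 cells up to 56. SPRY2, SPRY4 and DUSP6 stayed within 2-fold on that scale, as 85.6% of all genes tested did. Without a pseudocount the SPRY4 mean was 3.17-fold higher up to 56 (1.70 against 0.538 normalized counts). That fold rested on 74 reads in 3 cells up to 56 and 14 reads in 4 cells from 57. ETV5, with 1 read in all, was not among the genes tested.

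**Figure D4:**
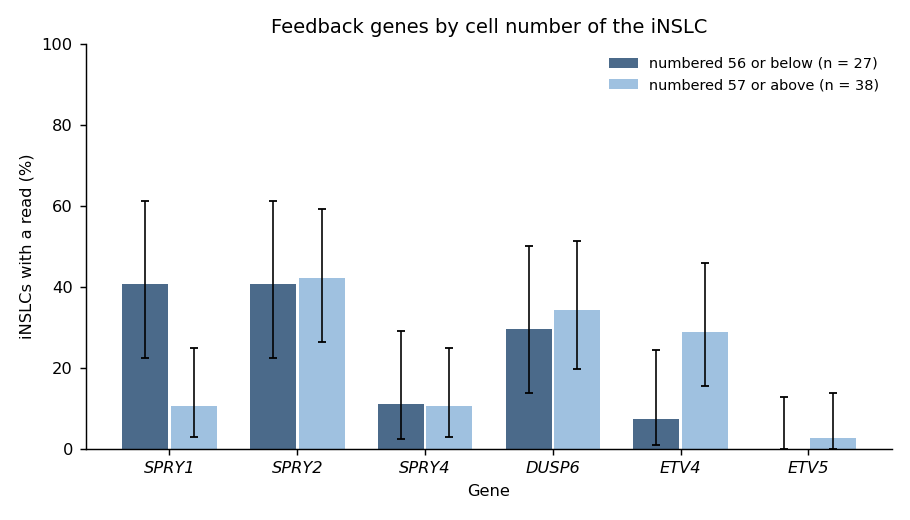
Bars give the percentage of iNSLCs with a read of each feedback gene in cells numbered 56 or below (n = 27) and 57 or above (n = 38), with exact 95% Clopper-Pearson intervals as error bars. SPRY1 is read in 40.7% and 10.5% and ETV4 in 7.41% and 28.9%, while the shares of SPRY2, SPRY4 and DUSP6 are close.

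The rest of the pathway did not follow the feedback genes. Of 97 listed genes of the pathway, 89 had a row and 81 were tested between PSC cells and iNSLCs. At least 2-fold higher in PSC cells were 13, and 21 were at least 2-fold lower, beside 30.4% and 15.2% of all genes tested. These shares, and the 54.4% of all genes tested under 2-fold either way, also stand beside the counts of each list below. The median log2 ratio over the 81 was -0.18, below the 0.37 of all genes.

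Among the ligands, 5 of 18 could be tested, with 3 at least 2-fold higher and 1 lower in PSC cells. None of those 4 had a mean of 10 in the higher group. FGF4, a ligand of the early embryo singled out after its values were seen, had 60 reads in 3 of 4 ESCs, 3 in the iPSC and none in the 65 iNSLCs, which puts the PSC mean of 7.92 at least 128-fold higher. FGF8, singled out in the same way, had 19 reads in PSC cells and 3 reads in 1 iNSLC. The FGF homologous factors, intracellular proteins that bind sodium channels and are not secreted, had 1 of 4 higher (FGF12, 21.0 against 1.23 normalized counts) and 3 lower, among them FGF13 (4.43 against 17.1).

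The co-receptors and carriers of heparan sulfate, which hold FGF ligands at the cell surface, had 7 of 14 tested genes at least 2-fold lower in PSC cells and 1 higher, with a median log2 ratio of -1.13. GPC4 was the gene that was higher (81.6 against 3.94), and every PSC cell, at 36.7 to 104, was above the highest iNSLC at 24.5, as in 1.16% of all genes tested. The syndecan SDC2 was lower (1.37 against 31.6), as were the glypicans GPC3 (9.89 against 84.8) and GPC6 (2.82 against 18.7).

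The adaptors and kinases of the ERK cascade were close to each other in both states. Of 23 tested, 1 gene was higher by 2-fold or more in PSC cells and 2 were lower, with a median log2 ratio of -0.14. The adaptor SHC1 was higher (107 against 33.2 normalized counts). The RAS exchange factor SOS1 (11.6 against 26.6) and the kinase MAP2K2 (78.6 against 159) were lower.

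Of 18 other ERK feedback and target genes, 3 were at least 2-fold higher in PSC cells and 4 lower, with a median of 0.14. DUSP5, a nuclear ERK phosphatase, had the highest ratio of the list, at 27.4 against 0.418 normalized counts (65.5-fold). It ranged from 0 to 44.1 in the ESCs, and unlike DUSP6 and ETV4 it was also high in the iPSC, at 41.7. EPHA2 (100.3 against 45.3) was higher, whereas DUSP7 (6.10 against 15.1) and PHLDA1 (2.40 against 11.0) were lower. The immediate early genes EGR1 and FOS, singled out after their values were seen, were read in 45 and 47 of 65 iNSLCs, up to 412 and 91.6 normalized counts. Their PSC means, 14.8 and 18.4, were close to or under the iNSLC means of 30.2 and 19.0.

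None of the 4 repressors of ETS target genes passed 2-fold in either direction. Of 13 other receptor tyrosine kinases, 4 were at least 2-fold higher in PSC cells and 4 lower. ERBB3 (93.3 against 2.49), ERBB2 (157 against 65.4) and PDGFRB (26.7 against 7.36) were higher. NTRK2, the BDNF receptor, was 55.0-fold lower on 2 PSC reads (counting interval 15.2 to 454).

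**Figure D5:**
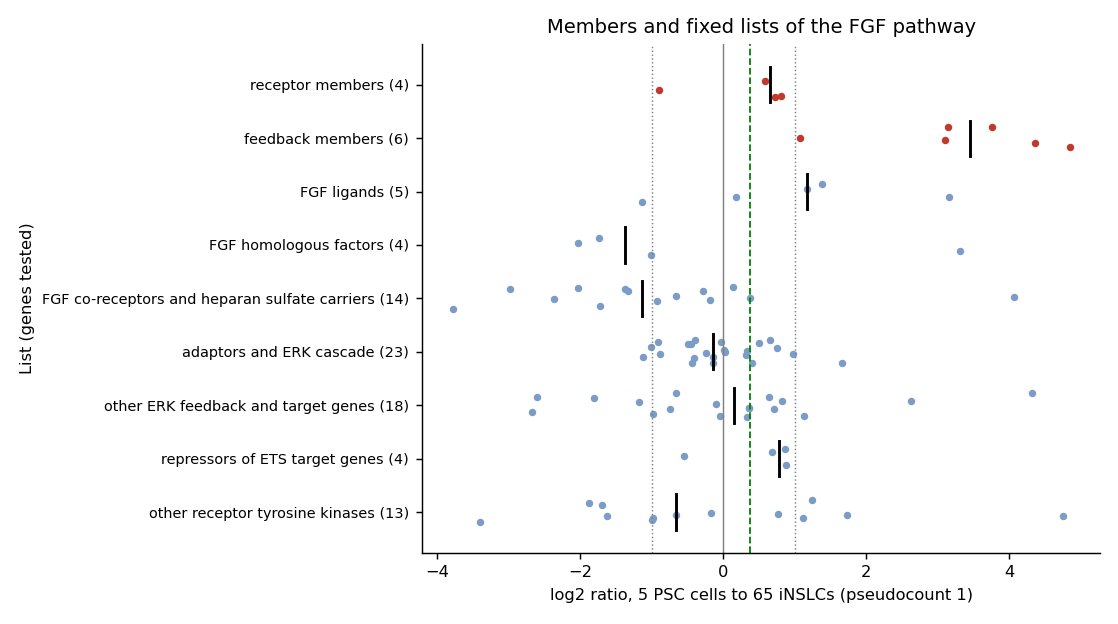
Each point is 1 gene, placed by its log2 ratio of 5 PSC cells to 65 iNSLCs (pseudocount of 1), with a black bar at the median of each list, the dashed line at the median of all genes (0.37) and dotted lines at 2-fold. The median of the 6 feedback genes, 3.45, lies to the right of the medians of the 7 other lists, which run from -1.37 to 1.17. SPRY1, at 1.07, lies to the left of the highest of these, that of the FGF ligands.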

How the data were processed

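The deposited table holds the authors' normalized counts (signal) for 71 single cells. Tools in the submitters' processing notes are Seurat 3.0.0, featureCounts 1.5.1, STAR 2.6.0c and Trimmomatic, with no role given. Genome build, annotation and strand setting: not given in the sources used here. FGFR1, SPRY1 and SPRY4 overlap a neighbouring gene in RefSeq, and reads of such neighbours may be shared. Within a cell, 100% of non-zero values were whole multiples of the value of 1 read (0.405 to 2.84 normalized counts) within 0.02, so reads were recovered. The row with no gene name (at most 0.449% of a cell) was left out.

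Means over cells were compared as log2 ratios with a pseudocount of 1, for genes with a mean of at least 1 in either group, and genes past 2-fold were counted. Folds without a pseudocount are ratios of means. A group with no read was set at a floor of 3 reads over the group (1.21 normalized counts in the fibroblast, 0.0618 in iNSLCs). Shares have exact Clopper-Pearson and reads exact Poisson intervals at 95%. The protocol as given names no molecular tags, so intervals and floors cover counting error only. Counting intervals of folds use the reads of the group with the lower mean alone. They leave out the reads of the other group and the spread between cells, and so do not measure the uncertainty of the fold. Cells were also thinned once to 130000 reads. No 2 cells held identical values. Doublets were not called, as cells were sorted singly.

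Genes named were the 10 members, up to 4 genes of each list past 2-fold with a mean of at least 10, and the 3 genes closest to each receptor, and others are marked. Members and lists were chosen with earlier results of these data known. Python 3.11.15, pandas 2.3.3, numpy 2.4.6, scipy 1.17.1 and matplotlib 3.10.9 were used. In simulated data over 13603 genes for PSC cells against iNSLCs, a true log2 ratio of 2 gave a median of 1.43 and one of -2 gave -1.61. With no true change, 7.21% of genes were called higher and 17.2% lower, so 2-fold counts can hold many calls that arise without a change. The simulation drew every gene with a single fixed dispersion that was not estimated from these cells. It held only genes with an iNSLC mean of at least 1, so genes below that in iNSLCs, such as ETV5, were left out. Its shares are thus no estimate for the real counts, where 30.4% of genes were higher and 15.2% lower.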

Additional observations from a re-analysis of the deposited data

Results flagged for a closer look

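For FGFR3, every ESC was above the iNSLC mean and the fibroblast was below it (log2 ratio -0.10). The fibroblast ratio was -0.86 with every cell scaled to the median total and -0.75 after thinning to 130000 reads. The difference between ESCs and the fibroblast was not tested.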

How the results depend on the processing

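The log2 ratios of the 10 genes between PSC cells and iNSLCs kept their sign under 12 alternatives each, although single receptors and SPRY1 crossed 2-fold under some of them. Of 120 values, 118 moved by less than the spread between PSC cells. That spread is a wide limit, from 0.52 for FGFR1 to 3.09 for FGFR4, so the count says little about stability. A pseudocount of 10 moved SPRY4 and ETV5 by more than their spread, ETV5 to 0.83. Within their spread, it took ETV4 from 4.36 to 2.24 and DUSP6 from 3.76 to 2.16. It put the feedback median at 1.94 with 4 of 6 genes past 2-fold and the receptor median at 0.60. It also cut the pathway genes past 2-fold from 13 to 7 higher and from 21 to 4 lower, and all genes from 4947 to 1692 higher and from 2472 to 675 lower. A minimum mean of 10 left 2722 and 1240 of all genes. Leaving out each PSC cell in turn gave a median of 3.12 to 3.73 for the feedback genes and 0.53 to 0.64 for the receptors. It gave 5 to 6 feedback genes past 2-fold, 11 to 17 pathway genes higher and 18 to 27 lower, and 4632 to 5375 of all genes higher and 2184 to 2876 lower. With every cell scaled to the median total, the feedback median was 3.12 and 5 of 6 genes passed 2-fold, and the median of all genes moved from 0.37 to 0.08. Thinning to 130000 reads, done once, put the fibroblast median at 0.73 instead of 2.15. With every cell scaled to the median total, 5 of 6 feedback genes were still at least 2-fold higher in the fibroblast than in iNSLCs. A detection value of 10 put the share of iNSLCs with a feedback gene at 23.1% instead of 76.9%. The cause of these shifts was not tested.

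No paired analysis was possible because cell numbers are unique to a cell and groups share none. The planned receptor composition was not run, since no transcript lengths were used here. Depth limits the shares, because 1 read is worth up to 2.84 normalized counts in an iNSLC, and a share counts cells with a read, not cells that express the gene. With 4 ESCs, 1 iPSC and 1 fibroblast, spread between cultures is unknown.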
